A study of Mus musculus with 16 samples.

Results

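Cortical layer and pallial identity genes are the transcription factors, transporters and signalling genes by which excitatory neurons of the dorsal forebrain, and their layers, are told apart. A list of 32 such genes was followed by gene symbol through all 16 RNA-seq libraries, and all 32 were found among the 53801 genes of the count table. They comprise 9 upper-layer, 9 deep-layer, 7 progenitor or pallial field and 7 glutamatergic neuron genes. The libraries came from the cortex and striatum of 9 mice aged 10 days, on a C57BL6/J-129sv background, and each tissue was represented by 4 libraries of either genotype. Control mice were Trrap Fl/+; Camk2-Cre tg and Trrap-FBΔ mice were Trrap Fl/Fl; Camk2-Cre tg, so the controls also carried the Cre transgene and 1 floxed allele. The study's methods list the transgene as an inducible Cre-ERT2 line, whereas the labels mention no tamoxifen, so how Cre was activated is not given in the sources used here. The promoter of the transgene acts in forebrain glutamatergic neurons, and whole tissue was sequenced, so each library also holds RNA of cells without deletion. All 4 Trrap-FBΔ mice and 3 of the control mice gave both tissues. Females made up 2 of 4 control cortex, 1 of 4 control striatum and 3 of 4 Trrap-FBΔ libraries in each tissue.

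TRRAP is the scaffold of histone acetyltransferase complexes, which help transcription factors to open chromatin. In the developing pallium, Emx, Pax6 and Lhx2 genes mark progenitors, Neurog2 and Eomes act during the commitment to glutamatergic fate, and the Neurod genes act in the young neurons. Postmitotic neurons then take layer identities, with Cux and Pou3f genes in upper layers and Fezf2, Bcl11b and Tbr1 in deep layers. The vesicular glutamate transporters divide the brain: Slc17a7 prevails in cortex and Slc17a6 in thalamus and other subcortical regions. The striatum arises from the subpallium and consists mainly of inhibitory projection neurons.

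Total counts ranged from 28743866 to 48761429 per library. The counts of Trrap itself overlapped between genotypes in both tissues, so this gene gave no check of the labels. Trrap CPM (the read count scaled to library depth, TMM-normalized) was 172.9, 155.7, 136.2 and 146.5 in control cortex against 121.3, 136.9, 134.5 and 146.2 in Trrap-FBΔ cortex (log2 fold change -0.18 ± 0.075 SE, edgeR adjusted p = 0.0826). In striatum the Trrap log2 fold change was -0.044 ± 0.048 (SE, edgeR adjusted p = 0.519). Counts per gene do not show whether the floxed exons were present.

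Markers of striatal projection neurons set the striatum libraries apart only in part. Of 17 such genes, 4 (Tac1, Isl1, Ebf1 and Six3) were higher and 1 (Foxp1) was lower in control striatum than in control cortex, that is 29.4% called against 40.4% of all genes. Those 5 did not overlap between the control tissues, and neither did 38.7% of all genes. The homeobox gene Six3 read 1.91 to 8.23 CPM in cortex and 19.61 to 36.09 CPM in striatum. In Trrap-FBΔ mice 8 of the 17 were higher and 3 lower in striatum, that is 64.7% called against 54.7% of all genes. In each single direction 27.4% of all genes were called. The summed CPM of the 17 ranged from 815.6 to 1582 in control cortex and from 668.2 to 2291 in control striatum. The signalling inhibitor Ppp1r1b, a defining marker, read 51.75, 178, 184.8 and 58.43 CPM in control cortex and 19.43, 97.46, 299.4 and 88.98 CPM in control striatum. All 5 thalamus markers were higher in control striatum, where 20.3% of all genes were called higher. Their summed CPM was 168.4 to 251.5 there against 34.45 to 51.46 in control cortex. The label striatum is therefore used here for the dissected tissue and not for a pure population of striatal neurons.

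Promoter windows, taken from RefSeq (GRCm38.p6; 250 bases before to 50 bases after the annotated start), were found for 27 of the 32 members. The GC box, the binding motif of the SP1 family, was searched as GGGCGG on both strands. It was present in 20 of 38 member windows (52.6%) and in 35.7% of all 32851 windows. By gene, 17 of the 27 members held a GC box. Windows were not independent, since windows 2 and 3 of Lmo4 overlap and share GC boxes. The G and C content of member windows ran from 35.7% (Mef2c) to 81.3% (Lmo4), and base composition was not taken into account. The E-box words CAGATG and CATATG occurred in 23.7% of member windows against 20.3% of all windows, and TATAAA in 13.2% against 13.6%. 5 windows are printed for genes on which the results below turn, 5′ to 3′ on the strand of the gene with GC boxes in capitals. A match is a description of letters and not of binding.
Rasgrf2 chr13:92131779-92132078, minus strand: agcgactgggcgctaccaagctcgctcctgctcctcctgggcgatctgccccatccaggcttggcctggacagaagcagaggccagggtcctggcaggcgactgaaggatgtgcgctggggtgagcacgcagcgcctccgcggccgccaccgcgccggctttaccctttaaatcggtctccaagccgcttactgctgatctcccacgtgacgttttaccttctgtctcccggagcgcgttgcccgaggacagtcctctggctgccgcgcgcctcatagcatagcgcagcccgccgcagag
Etv1 chr12:38779832-38780131, plus strand: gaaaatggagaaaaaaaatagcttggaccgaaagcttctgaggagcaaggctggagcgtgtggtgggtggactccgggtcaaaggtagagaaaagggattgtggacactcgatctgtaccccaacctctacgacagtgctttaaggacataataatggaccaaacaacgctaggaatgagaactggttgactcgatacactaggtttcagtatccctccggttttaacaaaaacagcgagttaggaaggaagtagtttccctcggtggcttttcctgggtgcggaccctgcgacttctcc
Fezf2 chr14:12345816-12346115, minus strand: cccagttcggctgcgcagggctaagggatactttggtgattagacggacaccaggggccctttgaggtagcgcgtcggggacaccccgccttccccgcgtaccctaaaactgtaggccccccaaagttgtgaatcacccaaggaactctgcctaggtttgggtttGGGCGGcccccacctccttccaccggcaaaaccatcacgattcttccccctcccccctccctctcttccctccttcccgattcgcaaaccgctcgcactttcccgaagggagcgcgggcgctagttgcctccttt
Neurog2 chr3:127632886-127633185, plus strand: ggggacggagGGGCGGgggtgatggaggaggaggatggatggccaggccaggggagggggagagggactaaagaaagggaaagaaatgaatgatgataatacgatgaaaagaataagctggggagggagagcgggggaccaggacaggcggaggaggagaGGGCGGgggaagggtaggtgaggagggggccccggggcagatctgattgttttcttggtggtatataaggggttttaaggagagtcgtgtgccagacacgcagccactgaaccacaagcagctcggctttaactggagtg
Slc17a7 chr7:45163671-45163970, plus strand: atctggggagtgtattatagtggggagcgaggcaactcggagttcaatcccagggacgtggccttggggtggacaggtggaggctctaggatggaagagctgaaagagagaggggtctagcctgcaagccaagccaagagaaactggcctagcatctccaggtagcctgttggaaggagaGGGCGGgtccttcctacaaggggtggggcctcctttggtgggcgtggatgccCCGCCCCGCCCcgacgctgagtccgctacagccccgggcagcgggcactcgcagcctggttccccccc
The printed windows of Rasgrf2 and Etv1 held no GC box, and those of Slc17a7, Fezf2 and Neurog2 held 3, 1 and 2. Mef2c, lower in each tissue like Rasgrf2 and Etv1, held 1 GC box in window 2 and none in windows 1 and 3. Neurod6, lower in striatum like Slc17a7 and Fezf2, held none, and Ldb2 had no window. A relation of GC boxes to the genotype differences was not tested.

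The order of levels in control cortex was set by glutamatergic genes. In CPM per kb of exon, Slc17a7 was highest at 199.3 ± 25.7 (SD, n = 4), followed by the activity-regulated factor Mef2c at 89.4 ± 8.12 and Neurod6 at 80.0 ± 12.7. The latter pair did not differ beyond their spread. At the other end were the progenitor genes Pax6 at 1.01 ± 0.13, Eomes at 0.74 ± 0.68 and Neurog2 at 0.42 ± 0.17 CPM per kb, and the spread of Eomes reached both of the others.

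In the cortex most members stayed close to the control level. Of the 32 members, 7 were called (21.9%), against 33.3% of all 18268 genes tested (edgeR quasi-likelihood test, adjusted p below 0.05). A total of 6 were lower and 1 was higher, where 17.6% of all genes were called lower and 15.7% higher. The log2 fold change lay within 0.2 of zero for 22 members, and the median over all 32 was -0.081 against 0.001 over all genes. The groups did not overlap for the same 7 members, and for 32.7% of all genes.

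In the striatum 15 of 32 members were called (46.9%), against 30.2% of all 18872 genes tested. A total of 13 were lower and 2 were higher, where 15.8% of all genes were called lower and 14.4% higher. The median log2 fold change of the members was -0.30 against -0.0055 over all genes. The groups did not overlap for 10 members, and for 31.6% of all genes. By class, 6 of 9 deep-layer and 5 of 7 glutamatergic genes were lower, against 2 of 9 upper-layer genes and none of 7 progenitor genes. In bulk tissue, fewer cells of a type and less RNA per cell cannot be told apart. The number of members called in striatum fell to 9 without the Trrap-FBΔ library of mouse 61. The share of all genes called in that fit is not given here, so the drop is not shown to be particular to the members.

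**Figure D1:**
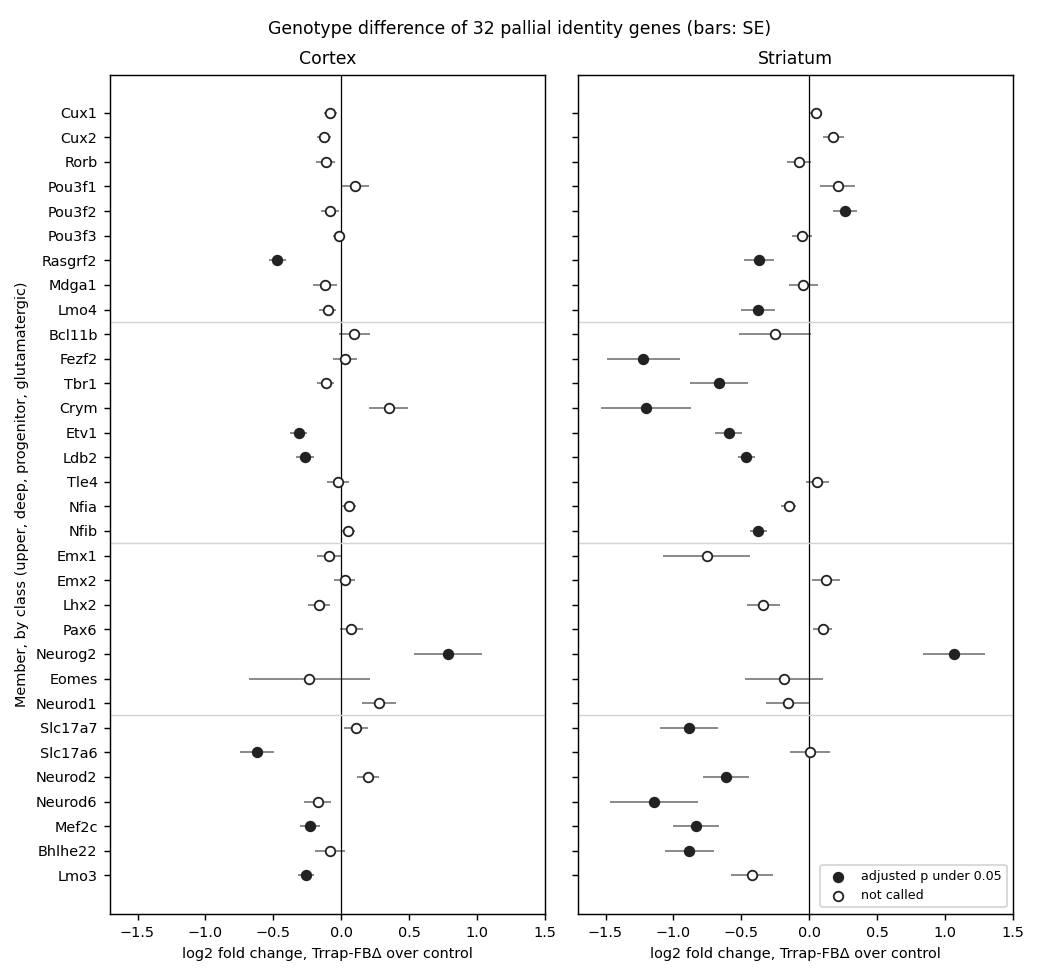
Log2 fold change (Trrap-FBΔ over control, x axis) with SE for each of the 32 members (y axis, by class) in cortex and striatum; filled points had an adjusted p below 0.05. Of the filled points, 7 lie in cortex and 15 in striatum, where the deep-layer and glutamatergic genes reach furthest to the left.

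Rasgrf2, a guanine nucleotide exchange factor of upper-layer neurons, was lower in both tissues. In cortex it read 153.1, 135.8, 129 and 148 CPM in control and 95.75, 105.8, 99.4 and 107.9 CPM in Trrap-FBΔ libraries. Every Trrap-FBΔ library was below every control library (log2 fold change -0.47 ± 0.061 SE, edgeR adjusted p = 0.000237). In striatum the values were 146.7, 114.7, 110.8 and 157.9 against 96.28, 109, 96.81 and 108.2 CPM. There the groups were also separate but close, and the log2 fold change was -0.37 ± 0.11 (SE, edgeR adjusted p = 0.0282). Unlike most members, Rasgrf2 did not differ detectably between control cortex and control striatum (log2 difference -0.091 ± 0.11 SE, edgeR adjusted p = 0.568).

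None of the other 8 upper-layer genes was called in cortex. In striatum the LIM-only factor Lmo4 was lower (log2 fold change -0.38 ± 0.13 SE, edgeR adjusted p = 0.044), with 102.9, 139.6, 147.7 and 98.11 CPM in control and 87.46 to 99.94 CPM in Trrap-FBΔ libraries, so the groups overlapped. The POU factor Pou3f2 was higher at 36.36 to 41.66 CPM in control and 40.17 to 52.8 CPM in Trrap-FBΔ libraries (log2 fold change 0.26 ± 0.090 SE, edgeR adjusted p = 0.0492). With sex as a covariate neither Lmo4, Pou3f2, Rasgrf2 nor the deep-layer gene Tbr1 was called in striatum. The striatal calls were also lost in 6 of 8 fits that left out 1 library for Lmo4, in 6 for Pou3f2 and in 4 for Rasgrf2. Cux1, Cux2, Rorb, Pou3f1, Pou3f3 and Mdga1 passed in neither tissue, with log2 fold changes between -0.13 and 0.10 in cortex and between -0.073 and 0.21 in striatum. Cux2, a homeobox gene of upper-layer neurons, stood at 112.7 to 130.1 CPM in control cortex and 105.6 to 113.7 CPM in Trrap-FBΔ cortex, and at 53.87 to 69.48 against 65.15 to 69.45 CPM in striatum. Rorb, the layer 4 nuclear receptor, stood at 54.82 to 68.56 against 52.04 to 57.65 CPM in cortex and 29.91 to 37.65 against 28.55 to 34.71 CPM in striatum. The ranges of the 2 genotypes overlapped in each case.

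Among deep-layer genes, the layer 5 factor Etv1 and the LIM domain-binding cofactor Ldb2 were lower in both tissues. Etv1 read 74.59, 76.38, 82.13 and 86.44 CPM in control cortex and 63.32, 68.05, 66.93 and 59.04 CPM in Trrap-FBΔ cortex. The groups were separate (log2 fold change -0.31 ± 0.060 SE, edgeR adjusted p = 0.00237). In striatum Etv1 stood at 48.39, 44.13, 46.32 and 45.27 against 30.89, 28.35, 37.12 and 25.51 CPM, again without overlap (-0.59 ± 0.10 SE, edgeR adjusted p = 0.00198). Ldb2 log2 fold changes were -0.27 ± 0.067 in cortex (SE, edgeR adjusted p = 0.0106) and -0.46 ± 0.061 in striatum (edgeR adjusted p = 0.000625). For Ldb2 the striatal libraries read 51.88 to 58.41 CPM in control and 36.18 to 42.71 CPM in Trrap-FBΔ mice.

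Fezf2 and Crym were lower in striatum and were not called in cortex. Fezf2, which specifies subcerebral projection neurons, read 13.85, 14.88, 9.384 and 8.564 CPM in control striatum and 5.08, 3.784, 7.773 and 3.271 CPM in Trrap-FBΔ striatum. The groups did not overlap (log2 fold change -1.22 ± 0.27 SE, edgeR adjusted p = 0.00748). In cortex Fezf2 stood at 39.68 to 51.74 CPM in control and 44.06 to 50.37 CPM in Trrap-FBΔ libraries (0.026 ± 0.090 SE). Crym, a thyroid hormone-binding protein, read 54.65, 98.94, 73.97 and 51.18 against 44.98, 16.67, 40.85 and 18.55 CPM in striatum. Its striatal log2 fold change was -1.20 ± 0.33 (SE, edgeR adjusted p = 0.0202), and its cortical one 0.35 ± 0.14 (SE, edgeR adjusted p = 0.0793). The striatal call of Crym was lost without the Trrap-FBΔ library of mouse 61. In cortex Crym was called higher without a filter on low counts (edgeR adjusted p = 0.0117). The same held with sex as a covariate (edgeR adjusted p = 0.0453) and without control 64 (edgeR adjusted p = 0.00492).

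The corticothalamic factor Tbr1 was lower in striatum at 31.58, 28.47, 39.35 and 20.13 CPM in control and 23.36, 14.68, 22.74 and 14.36 CPM in Trrap-FBΔ libraries (log2 fold change -0.67 ± 0.22 SE, edgeR adjusted p = 0.0394). The control library of mouse 65 lay within the Trrap-FBΔ range. The Tbr1 call was lost with sex as a covariate and on leaving out control 58, 63 or 64 or Trrap-FBΔ 59 or 61. Nfib, a nuclear factor I gene of neurons and glia, was lower in striatum without overlap, at 149.7, 151.3, 136.7 and 131.8 against 103.8, 110.4, 119.1 and 105.7 CPM (-0.37 ± 0.062 SE, edgeR adjusted p = 0.00182). Bcl11b, a factor of deep-layer and also of striatal projection neurons, varied widely among control striatum libraries, at 57.24, 75.1, 141.3 and 65.26 CPM, and Ppp1r1b was highest in the same library of mouse 64. Bcl11b, Tle4 and Nfia passed in neither tissue, although Nfia did not overlap between genotypes in striatum (log2 fold change -0.15 ± 0.056 SE, edgeR adjusted p = 0.0628).

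Neurog2, the proneural factor of the pallium, was the single member higher in both tissues, at a low level. In cortex it read 0.69, 0.54, 1.09 and 1.40 CPM in control and 1.53, 1.65, 1.91 and 1.42 CPM in Trrap-FBΔ libraries. The lowest Trrap-FBΔ library was just above the highest control (log2 fold change 0.79 ± 0.25 SE, edgeR adjusted p = 0.0319). In striatum the values were 0.724, 1.19, 0.999 and 0.545 against 1.61, 1.92, 2.17 and 1.59 CPM (1.07 ± 0.23 SE, edgeR adjusted p = 0.00612). The call in cortex was lost on leaving out the control library of mouse 55 or 58, or the Trrap-FBΔ library of mouse 59 or 60. Of 8 listed markers of dividing and neural progenitors, 6 were lower and none was higher in Trrap-FBΔ cortex, and 3 were lower and none was higher in striatum. Of all genes, 17.6% were called lower in cortex and 15.8% in striatum. Their part in the Neurog2 result was not tested.

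The other progenitor genes passed in neither tissue. Among them the pallial field gene Emx2 stood at 10.69 to 13.07 CPM in all 8 cortex libraries and at 6.14 to 8.86 CPM in all 8 striatum libraries. Eomes, the marker of intermediate progenitors, read 1.24, 7.31, 1.64 and 2.17 CPM in control cortex, where the library of mouse 58 stood apart, and 2.19 to 3.17 CPM in Trrap-FBΔ cortex (log2 fold change -0.23 ± 0.44 SE). Without that library its log2 fold change was 0.65 (edgeR adjusted p = 0.0368), so its direction turned. Emx1, the pallial homeobox gene, stood at 3.75, 4.51, 3.37 and 2.54 CPM in control striatum and 2.35, 1.79, 3.31 and 0.92 CPM in Trrap-FBΔ striatum (-0.75 ± 0.32 SE, edgeR adjusted p = 0.0982). The LIM homeobox gene Lhx2 stood at 23.01 to 33.86 CPM in control and 19.24 to 25.44 CPM in Trrap-FBΔ striatum, with overlap (-0.34 ± 0.12 SE, edgeR adjusted p = 0.0565). Pax6 lay between 10.59 and 14.02 CPM in all 8 cortex libraries and between 16.06 and 20.24 CPM in all 8 striatum libraries. Its levels thus separated the tissues but not the genotypes. Neurod1, a target of Neurog2 in neurogenesis, had log2 fold changes of 0.28 ± 0.12 in cortex (SE, edgeR adjusted p = 0.102) and -0.16 ± 0.16 in striatum (SE, edgeR adjusted p = 0.499).

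Of the glutamatergic genes, 3 of 7 were called in cortex (42.9%, against 33.3% of all genes) and 5 of 7 in striatum (71.4%, against 30.2%). Mef2c was lower in both. It read 1574, 1270, 1360 and 1417 CPM in control cortex and 1206, 1210, 1213 and 1172 CPM in Trrap-FBΔ cortex (log2 fold change -0.23 ± 0.073 SE, edgeR adjusted p = 0.0313). In striatum it read 251.5, 270.4, 323.4 and 200 against 146.4, 146.8, 186.9 and 106.5 CPM (-0.83 ± 0.17 SE, edgeR adjusted p = 0.00529). The groups did not overlap in either tissue, but the cortical call was lost on leaving out any of 5 single libraries, namely control 55 or 64 or Trrap-FBΔ 59, 60 or 61. The cortical call was also lost in 1 fit of all 16 libraries and when a fold change above 1.2 was required.

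Slc17a6 and Lmo3 were called lower in cortex and not in striatum, and their difference between tissues was not called. Slc17a6 read 75.9, 61.34, 44.18 and 63.29 CPM in control and 36.45, 42.89, 38.42 and 41.33 CPM in Trrap-FBΔ cortex, without overlap (log2 fold change -0.62 ± 0.13 SE, edgeR adjusted p = 0.00356). In striatum it stood at 200.7 to 340 CPM in control and 235.9 to 295.7 CPM in Trrap-FBΔ libraries (0.0058 ± 0.15 SE). Summed thalamus markers in cortex were 34.45 to 51.46 CPM in control and 34.64 to 40.18 CPM in Trrap-FBΔ libraries, and 1 of these 5 genes, Rgs16, was called lower there; their part in the Slc17a6 result was not tested. Lmo3, a LIM-only factor, read 151.6, 166.7, 159.2 and 151.3 against 117.4, 129.4, 141.8 and 137.3 CPM in cortex (-0.26 ± 0.061 SE, edgeR adjusted p = 0.00748). In striatum the Lmo3 log2 fold change was -0.42 ± 0.15 (SE, edgeR adjusted p = 0.0588), further from zero than in cortex, with 111.4 to 167.6 CPM in control and 80.22 to 119.8 CPM in Trrap-FBΔ libraries. It was called there by DESeq2, without a filter on low counts, in 1 fit of all 16 libraries, and on leaving out control 58 or 65 or Trrap-FBΔ 57. The cortical call of Lmo3 was lost in that fit of all 16 libraries and when a fold change above 1.2 was required.

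**Figure D2:**
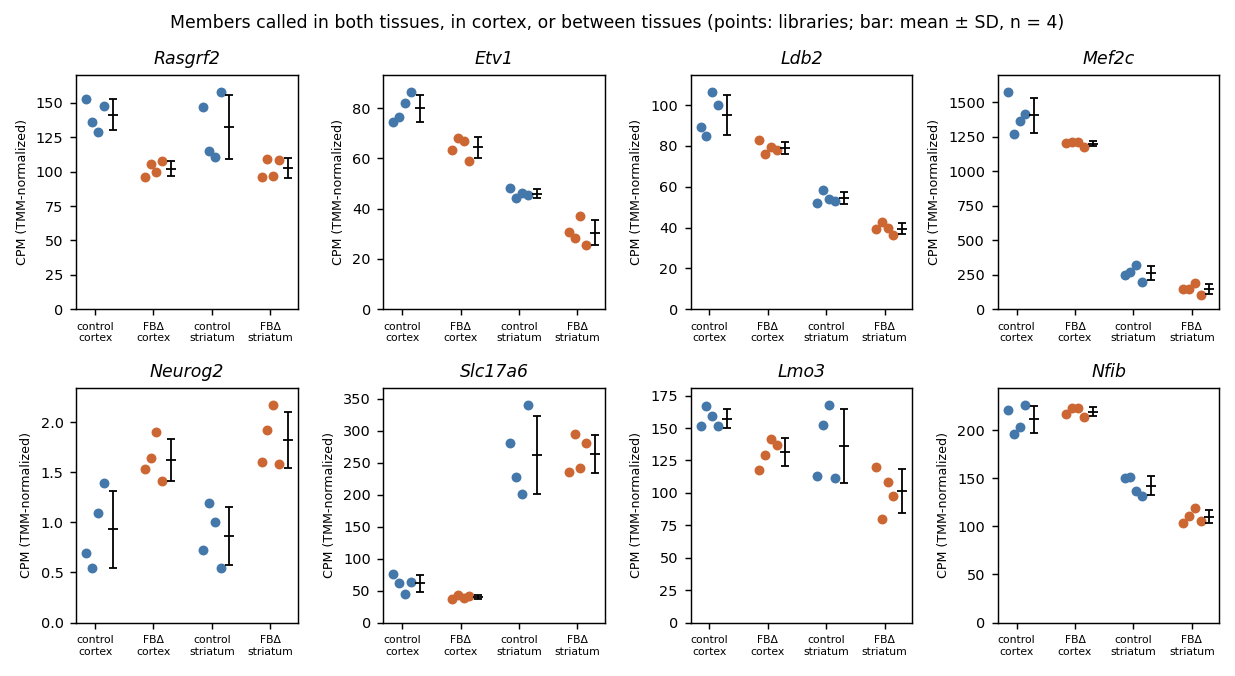
TMM-normalized CPM (y axis) of 8 members in each library of the 4 groups (x axis), with mean ± SD, n = 4. Rasgrf2, Etv1, Ldb2 and Mef2c were lower and Neurog2 higher in the Trrap-FBΔ libraries of both tissues, without overlap.

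The remaining glutamatergic genes were lower in striatum only by call. Slc17a7, the cortical vesicular glutamate transporter, read 394.4, 364.9, 363.8 and 227 CPM in control striatum and 230.5, 136.3, 225.4 and 139.1 CPM in Trrap-FBΔ striatum (log2 fold change -0.88 ± 0.21 SE, edgeR adjusted p = 0.0113). Again the control library of mouse 65 lay within the Trrap-FBΔ range and the other 3 lay above it. In cortex Slc17a7 stood at 889.5 to 1219 CPM in control and 1079 to 1204 CPM in Trrap-FBΔ libraries (0.11 ± 0.088 SE). Neurod6, a marker of pallial projection neurons, read 38.32, 69.21, 33.02 and 20.1 against 15.96, 23.74, 19.98 and 13.24 CPM in striatum (-1.14 ± 0.32 SE, edgeR adjusted p = 0.0227). Neurod2 changed by -0.61 ± 0.17 (SE, edgeR adjusted p = 0.0222) and Bhlhe22 by -0.89 ± 0.18 (SE, edgeR adjusted p = 0.00513) in log2 fold change. The call of Neurod2 was lost without control 58 or Trrap-FBΔ 59 or 61, and that of Neurod6 without Trrap-FBΔ 57 or 61. Of these, Bhlhe22 alone did not overlap, with 33.54 to 48.39 CPM in control and 14.81 to 27.68 CPM in Trrap-FBΔ libraries.

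**Figure D3:**
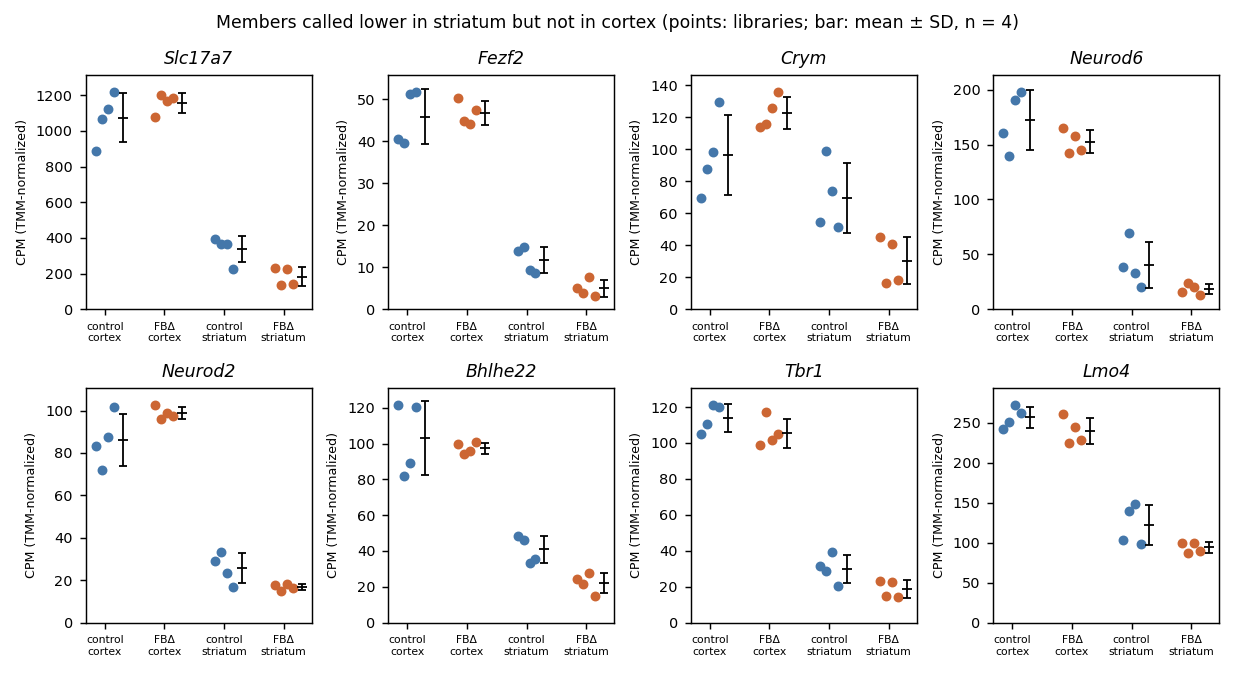
TMM-normalized CPM (y axis) of 8 members called lower in striatum and not in cortex, in each library of the 4 groups (x axis), with mean ± SD, n = 4. The cortical points of both genotypes share a range, while the striatal points of Trrap-FBΔ mice lie low, with overlap for Slc17a7, Neurod6, Neurod2, Tbr1 and Lmo4.

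Whether the genotype difference itself differed between tissues was tested over all 16 libraries. Nfib was the 1 member called (striatal minus cortical log2 fold change -0.43 ± 0.081 SE, edgeR adjusted p = 0.0292), against 0.437% of all 19438 genes. The largest differences not called were those of Crym (-1.55 ± 0.39 SE, edgeR adjusted p = 0.0916) and Fezf2 (-1.25 ± 0.29 SE, edgeR adjusted p = 0.0719). Since 7 mice gave both tissues, the test was repeated with the mouse as replicate block. Then 4 members were called lower in striatum relative to cortex (1.13% of all genes), namely Nfib, Slc17a7, Neurod2 and Mef2c. With a sex effect allowed to differ between tissues in that paired fit, 0 members and 0% of all genes were called by edgeR. The DESeq2 Wald test without a block called 6 members, but it exceeded its nominal error rate on simulated data. Its share of all genes is not given here, so that count does not set the members apart. No member was called under all of these fits.

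The members were mostly cortical in control mice. Compared with control cortex, 24 of 32 were called in control striatum, against 40.4% of all genes, with 22 lower and 2 higher, where 20.1% and 20.3% of all genes were called in those directions. In Trrap-FBΔ mice 27 of 32 were called, against 54.7% of all genes, with 25 lower and 2 higher, where 27.4% of all genes were called in either single direction. The 2 higher in both genotypes were Pax6 (log2 difference 0.55 ± 0.094 SE in control) and Slc17a6 (2.11 ± 0.19 SE in control). Both comparisons rest on the same libraries as the genotype comparisons, so they are not independent of them.

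Expressed as a share of the cortical mean of the same genotype, Slc17a7 in striatum was 31.4% ± 6.98 (SD, n = 4) in control and 15.8% ± 4.50 in Trrap-FBΔ mice. Fezf2 stood at 25.5% ± 6.90 against 10.7% ± 4.32, and Crym at 72.4% ± 22.8 against 24.7% ± 12.0. Among upper-layer genes, Pou3f1 was 29.5% ± 5.79 against 31.7% ± 3.17 and Rorb 54.4% ± 6.19 against 55.9% ± 5.03, differences within the spread of the libraries. Cux2 was 49.6% ± 6.12 in control against 61.1% ± 1.70 in Trrap-FBΔ mice, Pou3f2 64.4% ± 5.21 against 81.7% ± 10.2 and Cux1 85.78% ± 5.002 against 93.69% ± 1.496, each higher in Trrap-FBΔ mice without overlap, and Lmo4 stood at 47.6% ± 9.83 against 39.2% ± 2.70. These percentages were not tested, and their SD leaves out the spread of the cortex libraries. As a percentage of the cortex of the same mouse, Cux1 and Cux2 overlapped between genotypes. Cux1 reached 96.74% in control mouse 64 and was as low as 88.87% in Trrap-FBΔ mouse 59. Cux2 reached 59.36% in control mouse 58 and was as low as 58.63% in Trrap-FBΔ mouse 59. Pou3f2 stayed separate, at up to 64.99% in control and from 70.09% in Trrap-FBΔ mice. For Slc17a7 the control libraries of mice 58, 63 and 64 stood at 36.7%, 34.0% and 33.9%, and that of mouse 65 at 21.1%.

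**Figure D4:**
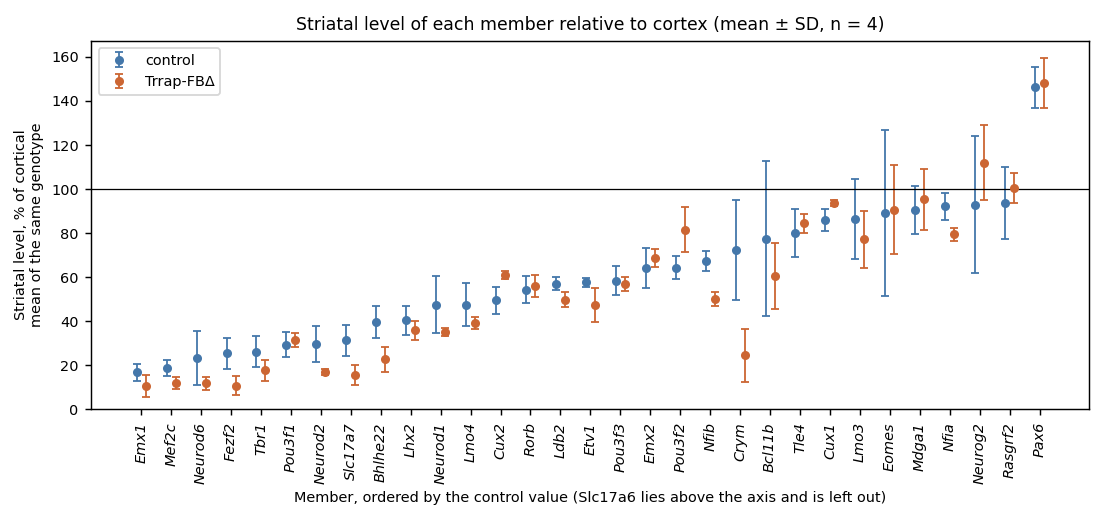
Striatal level as percent of the cortical mean of the same genotype (y axis; mean ± SD, n = 4) for 31 members (x axis, ordered by the control value), with control in blue and Trrap-FBΔ in orange. Slc17a7, Fezf2 and Crym lie lower in Trrap-FBΔ mice, Pou3f1 and Rorb lie within the spread of the control, and Cux1, Cux2 and Pou3f2 lie higher.

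Some markers of other regions and cell types moved with genotype in the same libraries. All 6 microglia markers were lower in both tissues (median log2 fold change -0.53 in each). All 10 oligodendrocyte lineage (median -0.43) and all 6 endothelial markers (median -0.36) were lower in cortex, and 3 of 10 and 1 of 6 were lower in striatum. Of all genes, 17.6% were called lower in cortex and 15.8% in striatum. The endothelial share in striatum, 16.7%, was thus near that of all genes. Summed thalamus markers were 168.4 to 251.5 CPM in control and 240 to 289.5 CPM in Trrap-FBΔ striatum, with none of the 5 at 0. Tcf7l2 and Lhx9 were higher (log2 fold change 0.47 and 0.77) and Prkcd lower (-0.43), so the list did not move in 1 direction. Of the 17 striatal projection neuron markers, 13 had a negative log2 fold change in striatum (median -0.27), but none of these was called; Ebf1 was the 1 called, and it was higher (0.58). How far the composition of the dissected tissue took part in these results was not tested. Of 4 hippocampal markers, 2 were called higher and none lower in Trrap-FBΔ cortex, where 15.7% of all genes were called higher. These were Fibcd1 (log2 fold change 0.91) and Spink8 (2.11). Spink8 was at a low level, with 0.1892 to 0.775 CPM in control and 1.501 to 2.506 CPM in Trrap-FBΔ cortex. In striatum 1 of the 4 was called higher and 1 lower.

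A second list of 32 genes of cortical layers and glutamatergic identity, none of them members, gave 11 calls in cortex (4 higher, 7 lower) and 12 in striatum (3 higher, 9 lower). These shares in either direction, 34.4% and 37.5%, were near the 33.3% and 30.2% of all genes. By direction, 15.7% of all genes were called higher and 17.6% lower in cortex, and 14.4% and 15.8% in striatum. The second list leaned lower like the members: 20 log2 fold changes were negative in cortex and 22 in striatum, against 20 and 23 of the members. The median log2 fold change of the second list was -0.055 in cortex and -0.12 in striatum. In striatum the postsynaptic protein gene Nrgn (-1.06) was lowest, and Scnn1a, a layer 4 marker, was higher in both tissues (0.63 in cortex and 0.77 in striatum). Plxnd1, a semaphorin receptor, was lower in both (-0.43 and -0.78). Immature neuron markers were lower in both tissues, with 7 of 8 called in each.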

How the data were processed

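RNA from cortex and striatum was sequenced in 16 libraries. The authors aligned the reads with STAR 2.5.4b and counted them per gene with featureCounts 1.5.0 (GRCm38, per the processing notes), and deposited raw counts. No column of another series was present. Genes were named by Ensembl identifier from GENCODE, and levels per kb used the union of exons. Per the study's methods, uniquely mapped reads were assigned in reverse-stranded mode, so antisense reads were not counted for a gene.

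Counts were filtered with filterByExpr, TMM-normalized and tested in edgeR 4.0.16 under R 4.3.3 (quasi-likelihood F test), separately in the 8 libraries of each tissue, with Benjamini-Hochberg adjustment over all genes tested and a threshold of 0.05. Differences between tissues were tested over all 16 libraries and within each genotype. The pairing of tissues was taken from the mouse number in the labels. Same-mouse pairs of libraries deviated together (r of 0.121 to 0.365 in 7 of 7 pairs, against -0.265 to 0.130 for different mice). These ranges overlapped at their ends. Deviations were taken from group means, so the r values are not independent, and sex is shared within a mouse. The r values therefore do not establish the pairing by themselves. Replicates of a group differed beyond sampling noise. Alternatives included DESeq2 1.42.0, other normalizations and filters, sex, and leaving out each library. The code was tested on simulated data, where edgeR kept near its nominal error rate and DESeq2 exceeded it. Those counts used spreads estimated by edgeR, few changed genes and independent libraries. In the data more genes were called and mice were shared between tissues. The error rate of either tool in these data was therefore not measured. Additional DESeq2 calls were given less weight.

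All 32 members are named, with full statistics for those called. Of each other list at most 3 called genes were to be named; markers named beyond that were picked once their values were known. The members and lists were chosen with earlier results of these data known.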

Additional observations from a re-analysis of the deposited data

Results flagged for a closer look

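Eomes stood at 7.31 CPM in the control cortex library of mouse 58, far from the other 3 control cortex libraries, at 1.24 to 2.17 CPM. It was the 1 value of 128 member and group combinations whose gap to the others exceeded Dixon's 95% critical value for 4 samples, where chance gives about 1 in 20. A single flag is thus fewer than that rate would give by chance. Nfib was the member whose genotype difference differed between tissues by a test of the difference itself, with a log2 difference of -0.43 (striatum minus cortex).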

How the results depend on the processing

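Requiring a fold change above 1.2 left 2 members called in cortex, 6 in striatum and 0 for the difference between tissues. Leaving out each library in turn gave 5 to 9 members in cortex, 9 to 17 in striatum (9 without the Trrap-FBΔ library of mouse 61) and 0 to 4 for the difference between tissues. That difference is the least stable result: Nfib was not called in 10 of the 16 fits that left out 1 library, and leaving out the control striatum library of mouse 65 gave 4 members. It gave 6 members without a filter on low counts and 6 with DESeq2, 4 with the mouse as replicate block, 0 with that block and a sex effect free in each tissue, and 4 with the block in the 7 mice that gave both tissues, a fit added after seeing the data. Of all genes, 1.13% were called with the mouse as block over all 16 libraries, and 0% with the sex effect added. For the other fits of this paragraph the share of all genes is not given here. Their counts therefore do not set the members apart from other genes. The paired fit changed the counts of the striatum against cortex comparisons by less than 1.5 times. Scaled by library size alone, the mean of the library medians of the striatal percentage was 62.3% in control and 56.6% in Trrap-FBΔ mice, against 57.9% and 52.0%. No called member changed sign under any alternative run; the cause of the lost calls was not tested. With 4 libraries per group, small differences were not detectable.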
